A study of Mus musculus and Rattus norvegicus with 51 samples.

Results

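The comparison is of fibrotic livers of mice given the [H] form of HMGB1 with fibrotic livers of mice given bovine serum albumin (BSA), chosen by their sample labels. It rests on 6 of the 51 libraries of the series, numbered 1 to 3 in each group and compared as 3 same-numbered pairs. The labels give all 6 as total liver lysate of wild-type male mice that received CCl4 for 4 weeks, together with BSA or [H] HMGB1. Every control therefore carries the CCl4 injury too, and BSA is a protein control, not an uninjured liver. Strain, age, dose, route and start of the HMGB1 treatment are not given in the labels, and neither is the meaning of the bracketed codes or whether each number is 1 animal. The p-values then reflect the spread over these libraries alone, and whether that is a spread over animals is not known. Livers given CCl4 with [O] HMGB1, livers given CCl4 for 4 weeks and then BSA while they regressed for 1 week, wild-type livers given MO or CCl4 alone, and HSC-T6 cells (a rat hepatic stellate cell line) given [H] HMGB1 or BSA for 6 hours serve below as comparisons.

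HMGB1 binds DNA in the nucleus and is released by damaged and activated cells. Outside the cell it acts on receptors such as RAGE and Toll-like receptors, or with the chemokine CXCL12 on CXCR4, and the oxidation of its cysteines bears on which of these it can use. CCl4 is turned into a reactive toxin by Cyp2e1 in the hepatocytes around the central vein. Repeated doses recruit neutrophils and monocytes, drive hepatic stellate cells to lay down collagen, and alter the sinusoidal endothelium, the fenestrated vessel lining whose scavenger receptors clear the blood and whose Wnt and BMP ligands instruct neighbouring hepatocytes.

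Sex-linked genes went against the male label, wholly or in part, in 4 of the 6 libraries. Xist, the RNA that coats the inactive X chromosome of female cells, stood at 5.05, 721 and 856 CPM (counts scaled to a common library size) in BSA livers 1, 2 and 3, and at 1.89, 397 and 66.0 CPM in [H] livers 1, 2 and 3. The summed level of 4 Y-linked genes (Ddx3y, Kdm5d, Eif2s3y and Uty) was 159.9, 0.805 and 0.218 CPM with BSA and 145, 16.3 and 184 CPM with [H]. Both libraries of pair 1 were closest to the label, with high Y-linked RNA and low Xist. Their Xist, at 5.05 and 1.89 CPM, still exceeded that of the reference livers given below. Both BSA libraries 2 and 3 had high Xist with almost no Y-linked RNA, [H] library 2 had high Xist with some Y-linked RNA, and [H] library 3 had Y-linked genes at the level of pair 1 together with Xist. Pair 3 thus sets a BSA liver without Y-linked RNA against an [H] liver with it. The 3 livers regressing with BSA had Xist at 0.125 to 0.621 CPM, and the 7 wild-type livers given MO or CCl4 alone had it at 0 to 0.159 CPM with 120.4 to 174 CPM of Y-linked RNA, as their label says. No source used here says whether tissue of several animals was pooled. For each list and the main genes the difference in pair 1 is therefore given too. It is 1 library against 1 and has no test of its own. Xist differed by -1.35 on the log2 scale within pair 1 too, so this pair is not free of such differences.

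**Figure D1:**
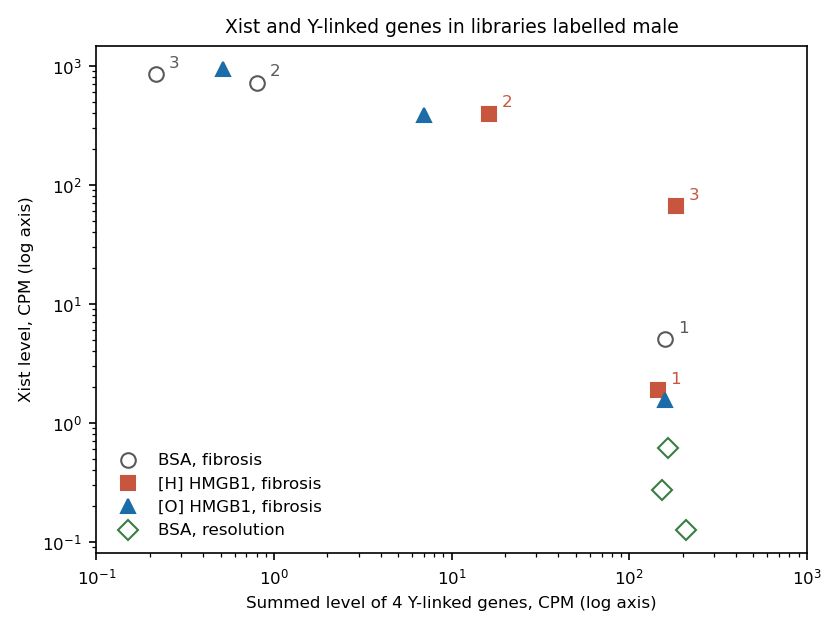
Level of Xist (vertical, CPM, log axis) against the summed level of 4 Y-linked genes (horizontal, CPM, log axis) in single libraries that are all labelled male, with the replicate number printed beside the BSA and [H] fibrosis libraries. BSA libraries 2 and 3 lie at the upper left (Xist 721 and 856 CPM), pair 1 and the regressing livers at the lower right, and [H] library 2 between them. [H] library 3 lies at the right with pair 1 (184 CPM of Y-linked RNA), and only its Xist (66.0 CPM) is in between.

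The 6 libraries held 10989755 to 16327132 gene counts, and their albumin RNA (Alb, 14441 to 18044 CPM) fits the liver label. BSA library 2 stood apart, with a median correlation of 0.874 with the other 8 libraries of the fibrosis groups, against 0.942 to 0.958 for the other 5 libraries. It held 7043 CPM of RNA from 27 immediate early genes, against 891 to 2916 CPM in the other 5 libraries. For 14 heat shock chaperone genes it held 8469 CPM, against 3930 to 4930 CPM. The part of these genes in the results that rest on BSA library 2 was not tested. BSA library 3 held 1597 CPM of RNA from 34 mitosis genes, against 43.4 to 211 CPM in the other 5 libraries. [H] library 3 held pericentral hepatocyte RNA at the level of regressing livers (values below). Deviations from the group means correlated between same-numbered libraries (0.492, 0.529 and 0.180 across genes), so the numbers were used as pairs. BSA library 3 correlated more with [H] library 1 (0.227) than with [H] library 3. Xist and the Y-linked genes also group pair 1 and pair 2, and their part in this pairing was not tested.

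No gene passed the test of [H] HMGB1 against BSA. Of 12993 genes tested with the pair as a block, 0 (0%) reached an adjusted p under 0.05 in edgeR's quasi-likelihood test, and the lowest adjusted p was 0.580. The unadjusted p was under 0.05 for 982 genes (7.56%), of which 725 (5.58%) were lower and 257 (1.98%) higher with [H]. In all 3 pairs 2041 genes (15.7%) were lower and 1975 (15.2%) higher, and the 3 [H] libraries lay below all BSA libraries for 607 genes (4.67%) and above them for 403 (3.10%). With DESeq2 on the same pairs 38 genes passed, 25 lower and 13 higher. When the log2 summed level of the Y-linked genes was added to the edgeR model without the block, an alternative chosen after seeing the data, 0 genes passed and 75 (0.577%) had an unadjusted p under 0.05. With both the block and that term, 0 passed and 167 (1.29%) had one. Genes are therefore described below as lower or higher in these libraries without a call, and those of lowest p all share the adjusted p of 0.580.

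Hmgb1 itself, the gene of the administered protein, did not differ beyond its spread. It stood at 153, 144 and 156 CPM with BSA and at 176, 148 and 161 CPM with [H]. The log2 fold change was 0.09 (SE 0.21, edgeR adjusted p = 0.943).

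The 10 genes of lowest p that were lower with [H] were led by S100a9, and 4 of them belong to the lists of neutrophils, macrophages or sinusoidal endothelium. S100a9 (chr3:90692630-90695721 in mm10) encodes a calprotectin subunit of neutrophils and stood at 25.2, 68.9 and 31.8 CPM with BSA and at 8.32, 15.7 and 10.9 CPM with [H]. All 3 [H] libraries lay below all BSA libraries, with a log2 fold change of -1.77 (SE 0.26, edgeR adjusted p = 0.580) and -1.58 in pair 1. Adgre1 (chr17:57358581-57483529), which encodes the macrophage surface protein F4/80, stood at 42.7, 54.6 and 70.8 CPM against 19.3, 27.5 and 30.8 CPM. Its 3 pair differences were close together, at -1.14, -0.98 and -1.20 (log2 fold change -1.12, SE 0.21, edgeR adjusted p = 0.580). Clec7a, the beta-glucan receptor dectin-1 of myeloid cells, was at 40.1, 77.6 and 61.5 CPM against 15.6, 38.0 and 27.2 CPM, also without overlap.

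The endothelial genes of this group were highest in BSA library 2. Thbd (chr2:148404471-148408188), the thrombin receptor thrombomodulin of vessel walls, stood at 18.9, 103 and 17.5 CPM with BSA and at 4.46, 21 and 7.76 CPM with [H] (log2 fold change -1.86, SE 0.30). Lyve1 (chr7:110850607-110862953), a hyaluronan receptor of sinusoidal and lymphatic endothelium, stood at 15, 78.0 and 17.9 CPM against 4.46, 28.1 and 8.53 CPM. In both genes [H] library 2 exceeded BSA libraries 1 and 3, so the groups overlapped although each pair was lower. Cdh5 (chr8:104101613-104144504), the endothelial junction protein VE-cadherin, did not overlap, with 65.2, 155 and 91.0 CPM against 29.8, 64.5 and 52.5 CPM. Akap12 (chr10:4266329-4359471), a scaffold that anchors protein kinase A, had the largest difference of the 10, with 11.9, 104 and 13.9 CPM against 1.72, 11.9 and 6.17 CPM (log2 fold change -2.37, SE 0.43). The other 3 were Dab2, an endocytic adaptor, Gab2, a docking adaptor of receptor signalling, and Cttnbp2nl, with log2 fold changes of -1.07, -1.37 and -1.32. In pair 1 all 10 genes were lower, most of all Akap12 (-2.68).

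The genes of lowest p that were higher with [H] were led by Scara5 and otherwise differed by 1.15 to 2.55 on the log2 scale. Scara5 (chr14:65666403-65764826), a scavenger receptor that takes up ferritin, stood at 6.45, 0 and 0.871 CPM with BSA and at 98.3, 13.6 and 16.4 CPM with [H]. The 0 allows a level of up to 0.302 CPM (3 counts), a limit that covers counting error only. The groups did not overlap, and the log2 fold change was 4.55 (SE 0.63, edgeR adjusted p = 0.580), with 3.90 in pair 1. The [O] HMGB1 livers had 141, 24.8 and 9.98 CPM of Scara5, so the higher level was not particular to [H]. Scara5 also passed without pair 2, with a log2 fold change of 4.04 (SE 0.29, edgeR adjusted p = 0.000362). With DESeq2 it passed too, as did most of the genes of lowest p. Cyp2c55, a cytochrome P450, was the other gene that passed without pair 2. It was lower by 2.63 on the log2 scale in that fit (edgeR adjusted p = 0.00321), but its pair differences were -2.55, 1.01 and -2.65.

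Ppm1k (chr6:57506502-57535552), the mitochondrial phosphatase that switches on branched-chain keto acid breakdown, had almost equal pair differences of 1.23, 1.27 and 1.25. Its levels still overlapped between groups, with 22.3, 7.25 and 40.4 CPM against 52.8, 17.7 and 96.7 CPM. Fbxo31, a substrate receptor of a ubiquitin ligase, did not overlap, with 44.5, 35.6 and 42.2 CPM against 122, 65.5 and 95.9 CPM (log2 fold change 1.17, SE 0.22). Dnajc12, a cochaperone of aromatic amino acid hydroxylases, did not overlap either, with 15, 18.7 and 12.6 CPM against 28.4, 50.7 and 28.0 CPM. The other 6 were Aldoc (a fructose bisphosphate aldolase, log2 fold change 1.32), Arrdc3 (an arrestin-like adaptor, 1.20), Upp2 (uridine phosphorylase, 1.35), Fbxo21 (an F-box protein, 1.15), the long noncoding RNA Ctcflos (1.91) and Hsd3b5 (a steroid dehydrogenase of male liver, 2.55). Hsd3b5 was at 1.26, 0.101 and 0.145 CPM against 7.72, 0.989 and 0.573 CPM, while the regressing livers had 83.5 to 144 CPM. In pair 1 all 10 genes were higher, by 0.87 (Arrdc3) to 3.90 (Scara5).

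**Figure D2:**
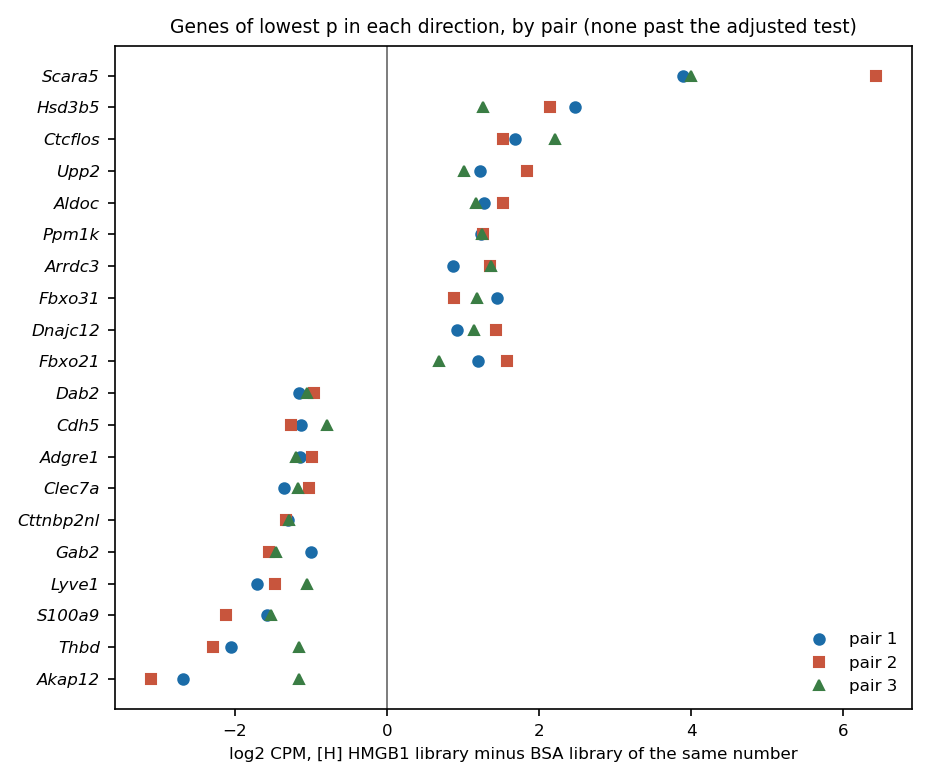
Difference of log2 CPM between the [H] HMGB1 and the BSA library of the same number (horizontal) for the 10 genes of lowest p in each direction (vertical), 1 marker per pair. All pairs of a gene lie on 1 side of zero, and Scara5 (3.90, 6.43 and 4.00) lies farthest right; the direction in all pairs is part of what a low p selects.

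Hepatocyte genes known for sex bias differed between groups along with the sex-linked genes. Of 9 male-biased genes listed after seeing the data, 8 were tested and 7 were higher in all 3 pairs (15.2% of all genes tested). They had a median log2 fold change of 1.46 and a median of 0.46 in pair 1. Of 11 female-biased genes, 9 were tested and 4 were lower in all 3 pairs (15.7% of all genes tested), with a median of -0.79 and -1.93 in pair 1. Cyp2d9, a male-biased steroid hydroxylase, stood at 734, 31.9 and 90.2 CPM with BSA and at 947, 159 and 394 CPM with [H]. Cyp2a4, a female-biased one, stood at 29.7, 897 and 511 CPM against 6.95, 233 and 353 CPM. The male-biased Cyp4a12a was at 80.2, 0.805 and 0.0726 CPM against 90.0, 8.44 and 21.7 CPM, close to equal in pair 1. These families hold near-identical copies, and their counts are uncertain between copies. The part of sex-linked differences in the other results was not tested beyond the fits with the Y-linked term.

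Genes of the sinusoidal endothelium were the list whose members were most uniformly lower with [H]. All 22 listed genes were tested, 20 were lower in all 3 pairs and 0 higher (15.7% and 15.2% of all genes tested), and 19 had an unadjusted p under 0.05 on the lower side (5.58% of all genes). In 11 of the 22 every [H] library lay below every BSA library (4.67% of all genes). The median log2 fold change was -0.84, beside 0.01 over all genes tested, and the pair medians were -1.10, -0.67 and -0.73. All 22 were lower in pair 1, where 48.5% of all genes tested were lower. All 22 also had a fold change below 0 in each of the 19 alternative fits, the 2 with the Y-linked term included, which gave medians of -0.50 without and -0.98 with the block. With that term and no block, 1 of the 22 had an unadjusted p under 0.05. The count of 19 depends on the block and on single libraries. Without the block it was 11, and without the block and 1 library it was 1 ([H] 1), 2 ([H] 3), 3 (BSA 2), 4 (BSA 3), 9 (BSA 1) or 11 ([H] 2), while without pair 1 it was 8. The median was -0.50 without [H] library 1. In bulk liver, fewer cells of a type and less RNA per cell cannot be told apart, here and in the lists below.

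The difference was seen in scavenger receptors and in vessel growth receptors, though not to the same extent in each gene. Stab2, a scavenger receptor which clears hyaluronan and other waste from blood, stood at 48.7, 68.4 and 96.0 CPM with BSA and at 25.1, 44.9 and 48.5 CPM with [H] (log2 fold change -0.86, SE 0.21). Ehd3, a membrane trafficking protein enriched in this endothelium, stood at 81.9, 109 and 86.1 CPM against 42.6, 54.7 and 49.1 CPM, with nearly equal pair differences of -0.94, -0.99 and -0.81. For the VEGF receptor Kdr the levels were 40.1, 41.8 and 55.6 CPM against 13.2, 34.2 and 36.9 CPM, and for the VEGF receptor Flt1 13.2, 24.9 and 13.1 CPM against 4.55, 10.2 and 6.49 CPM. None of these 4 genes overlapped between groups. The 2 members of highest level were less separated. Eng, a TGF-beta co-receptor, stood at 81.4, 143 and 117 CPM against 62.1, 83.7 and 75.0 CPM, and the scavenger receptor Stab1 at 62.9, 123 and 128 CPM against 56.4, 70.6 and 54.5 CPM.

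Of 4 ligands of this list, named after their values were seen, 3 were lower in all 3 pairs and Wnt2 in pairs 1 and 2. Bmp2, which induces hepcidin in hepatocytes, stood at 18.8, 36.4 and 22.9 CPM with BSA and at 7.04, 18.1 and 12.2 CPM with [H] (log2 fold change -1.12, SE 0.26). Rspo3, an enhancer of Wnt signalling around the central vein, was at 5.12, 14.5 and 5.73 CPM against 1.54, 3.89 and 3.50 CPM, and the Wnt ligand Wnt9b at 4.65, 3.52 and 3.85 CPM against 0.858, 2.31 and 1.78 CPM. No [H] library reached a BSA library in these 3 genes. Wnt2 was lower in pairs 1 and 2 but higher by 0.21 in pair 3, at 2.99, 4.53 and 2.39 CPM against 1.12, 1.98 and 2.80 CPM (edgeR adjusted p = 0.753).

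**Figure D3:**
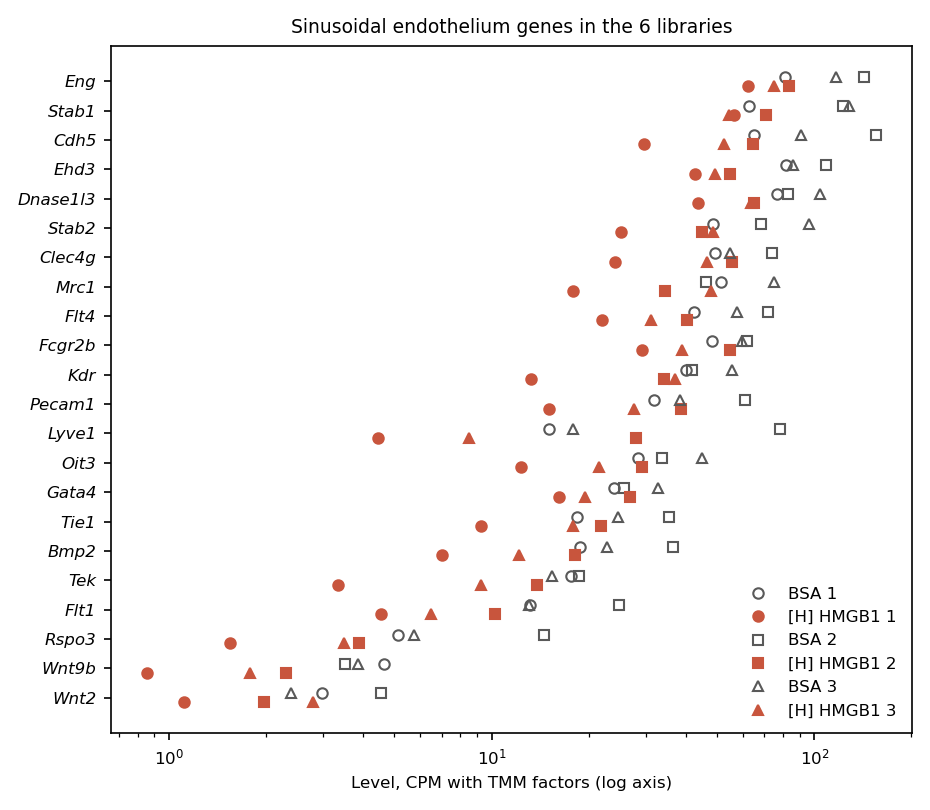
Level of the 22 sinusoidal endothelium genes (horizontal, CPM, log axis) in the 3 BSA libraries (open grey markers) and the 3 [H] HMGB1 libraries (filled red markers), 1 marker shape per replicate number, genes ordered by their mean with BSA. Markers of the [H] libraries lie left of the BSA marker of the same shape for 20 genes, and in 11 genes all filled markers lie left of all open ones.

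Neutrophil genes showed the lowest list median, with a smaller difference in pair 1, the pair closest to the label. Of 11 tested genes, 8 were lower in all 3 pairs, 8 had an unadjusted p under 0.05 and 3 did not overlap. On the lower side the shares over all genes tested were 15.7%, 5.58% and 4.67%. The median log2 fold change was -1.77. The pair medians were -0.54, -2.16 and -1.54. Their summed level was 65.2, 253 and 134 CPM with BSA and 36.0, 48.3 and 39.8 CPM with [H]. The [H] libraries thus lay close together and the BSA libraries far apart. S100a8, the partner of S100a9, stood at 12.4, 32.4 and 17.2 CPM against 6.61, 7.65 and 5.98 CPM. Retnlg, a secreted protein of neutrophils, stood at 4.85, 28.7 and 5.30 CPM against 0.944, 4.02 and 2.35 CPM, and Csf3r, the G-CSF receptor, at 10.2, 50.8 and 20.6 CPM against 9.18, 12.1 and 8.59 CPM. Csf3r differed by only -0.15 in pair 1. With a library left out and no block, 4 to 11 of the 11 genes had an unadjusted p under 0.05, with 4 without BSA library 2, [H] library 1 or [H] library 2 and 5 without [H] library 3.

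Macrophage genes were lower as well, in 2 sets that differ in how much rests on pair 3. Of 25 genes of infiltrating and scar-associated macrophages, 14 were lower in all 3 pairs, 11 had an unadjusted p under 0.05 on the lower side and 7 did not overlap (median log2 fold change -0.66, pair medians -0.22, -0.63 and -1.28). Over all genes tested the shares on the lower side were 15.7%, 5.58% and 4.67%. Lyz2, the lysozyme of myeloid cells, stood at 232, 305 and 292 CPM with BSA and at 153, 197 and 175 CPM with [H] (log2 fold change -0.66, SE 0.21). Csf1r, the receptor that keeps macrophages alive, stood at 119, 207 and 245 CPM against 73.2, 96.7 and 139 CPM, lower in each pair. Itgam, the integrin CD11b of recruited myeloid cells, was at 17.8, 75.9 and 32.6 CPM against 16.6, 34.6 and 10.7 CPM, close to equal in pair 1.

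The scar-associated members Gpnmb and Trem2 were highest in BSA library 3. Gpnmb, a lysosomal glycoprotein of these cells, stood at 87.9, 62.7 and 276 CPM with BSA and at 39.6, 66.8 and 32.9 CPM with [H], and the lipid receptor Trem2 at 12, 4.43 and 40.9 CPM against 7.98, 7.32 and 4.2 CPM. In pair 2 both were higher with [H], by 0.09 for Gpnmb and 0.70 for Trem2. Apoe, the member of highest level, which hepatocytes make too, differed in sign between pairs (4764, 7625 and 4496 CPM against 6076, 5097 and 5519 CPM). Without pair 3 the list's median was -0.50, and 5 of its genes had an unadjusted p under 0.05 on the lower side. Without the block that count was 2 without [H] library 1, 3 without BSA library 3, 5 without [H] library 3 and 7 without [H] library 2.

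Kupffer cells, the resident macrophages of the sinusoids, gave a list median of -0.60 over 13 genes (pair medians -0.39, -0.85 and -0.42). 8 were lower and 1 higher in all 3 pairs (15.7% and 15.2% of all genes tested). The median was -0.34 when [H] library 1 was left out without the block. Timd4, a phosphatidylserine receptor of resident macrophages, stood at 21.1, 40.4 and 31.3 CPM against 15.3, 12.3 and 12.5 CPM, and Cd163, the haemoglobin scavenger receptor, at 23.2, 46.7 and 28.4 CPM against 15, 11.6 and 15.1 CPM, both without overlap. Cd5l, a secreted macrophage protein of high level, was at 233, 339 and 388 CPM against 178, 189 and 234 CPM. The scavenger receptor Marco was at 402, 528 and 265 CPM against 502, 357 and 91.2 CPM and was higher in pair 1. The member that was higher in all pairs was the complement gene C6, at 234, 29.3 and 53 CPM against 291, 46.2 and 139 CPM.

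Stellate cell genes of the resting state were lower in most pairs. Of 16 genes, 11 were lower in all 3 pairs, 7 had an unadjusted p under 0.05 on the lower side, and the median log2 fold change was -0.60 (pair medians -0.22, -0.94 and -0.72). The 2 shares over all genes tested were 15.7% and 5.58%. Lrat, which stores retinol as esters and defines quiescent stellate cells, stood at 40.3, 93.3 and 38.0 CPM with BSA and at 27.2, 33.1 and 17.1 CPM with [H]. Reln, an extracellular matrix glycoprotein of these cells, stood at 205, 166 and 147 CPM against 144, 77.9 and 57.2 CPM, and hepatocyte growth factor, Hgf, at 11.6, 53.9 and 19.4 CPM against 5.92, 22.9 and 9.67 CPM. Lrat and Reln did not overlap between groups. Ecm1, a matrix protein that restrains latent TGF-beta, was high in BSA library 2 (115, 506 and 185 CPM against 144, 176 and 119 CPM) and higher with [H] in pair 1. Leaving out BSA library 2 without the block brought the list's median to -0.30. The 7 members with an unadjusted p under 0.05 then became 0, as without [H] library 3, 1 without [H] library 1, and 3 without [H] library 2 or BSA library 3.

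Collagens and scar matrix, the outcome that defines fibrosis, differed mainly in pair 3. Of 30 genes, 15 were lower and 0 higher in all 3 pairs (15.7% and 15.2% of all genes tested). An unadjusted p under 0.05 on the lower side was found for 5 (5.58% of all genes). The median log2 fold change was -0.73 (pair medians -0.24, -0.34 and -1.61). Without pair 3 the median was -0.25, with 22 of the 30 below 0, and without BSA library 3 and the block it was -0.42. In fits without 1 library and the block, 2 ([H] 1 or [H] 3) to 11 (BSA 2) of the 30 had an unadjusted p under 0.05 on the lower side. Col1a1, the main fibrillar collagen of scars, stood at 50.4, 30.3 and 414 CPM with BSA and at 46.7, 60.2 and 29.5 CPM with [H], and Col3a1 at 129, 54.2 and 557 CPM against 85.8, 106 and 71.6 CPM. BSA library 3 alone was high in both, and in pair 2 both were higher with [H]. Col1a1 with BSA in libraries 1 and 2 was near the regressing livers (16.1 to 39.8 CPM) and below the [O] livers (273 to 294 CPM). The members of highest level differed little: fibronectin, Fn1, was at 3483, 6501 and 3469.5 CPM against 4219, 4365 and 3677 CPM, and the basement membrane protein Nid1 at 256, 372 and 172 CPM against 254, 426 and 96.3 CPM.

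Enzymes and inhibitors of matrix turnover gave a median of -0.78 over 27 genes, with 13 lower in all 3 pairs (15.7% of all genes tested). They had pair medians of -0.38, -0.33 and -1.24, and a median of -0.39 without pair 3. The metalloproteinase inhibitors Timp2 and Timp3 did not overlap between groups, with 43.6, 49.1 and 58.5 CPM against 28.7, 39.4 and 28.1 CPM for Timp2 and 62.9, 79.7 and 44.7 CPM against 31.1, 44.5 and 34.4 CPM for Timp3. Mmp14, a membrane-bound collagenase, was at 114, 183 and 139 CPM against 109, 247 and 82.0 CPM, with no common direction.

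Genes of activated stellate cells and myofibroblasts differed mainly in pair 3. Of 18 tested genes, 5 were lower and 0 higher in all 3 pairs (15.7% and 15.2% of all genes tested). An unadjusted p under 0.05 was found for 3 on the lower side and 0 on the higher side (5.58% and 1.98% of all genes). The median was -0.43, with pair medians of 0.18, -0.02 and -1.10. Without pair 3 it was 0.15, with 7 of the 18 below 0, and without the block it was -0.039 without [H] library 3 and -0.15 without BSA library 3. Acta2, the smooth muscle actin that marks myofibroblasts, stood at 29.2, 19.2 and 39.5 CPM with BSA and at 40.6, 25.8 and 7.06 CPM with [H]. It was higher in pairs 1 and 2 and lower in pair 3. Tpm1, a tropomyosin, was at 182, 259.7 and 128 CPM against 218, 279.7 and 108 CPM. Osteopontin, Spp1, was higher with [H] by 0.95 in pair 1 and 0.37 in pair 2 and differed by -0.85 in pair 3.

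Cell cycle lists had pair medians of both signs, with pair 3 far from the others. For the 34 mitosis genes, high in BSA library 3 alone, the fitted median was -1.13 with pair medians of 0.04, 1.07 and -4.80, and 0 had an unadjusted p under 0.05. Without pair 3 the median was 0.53, and 8 of the 34 were below 0. Mki67, the proliferation marker Ki-67, stood at 23.3, 3.72 and 246 CPM against 17.8, 4.29 and 6.68 CPM, and the topoisomerase Top2a at 21.3, 1.81 and 100.4 CPM against 16.3, 4.48 and 3.31 CPM. The 30 genes of DNA replication and S phase had a fitted median of -0.47 and pair medians of 0.15, 0.93 and -2.26. Their summed level was 1300.2, 348 and 1587 CPM with BSA and 1470.4, 429 and 391 CPM with [H], so BSA library 3 was near BSA library 1 and [H] library 3 was low beside [H] library 1. Without the block, the median was -0.18 when [H] library 3 was left out and -0.16 when BSA library 3 was. Pcna, the replication clamp, was at 118, 71.5 and 158 CPM against 109, 66.4 and 54.9 CPM, and the helicase subunit Mcm6 at 121, 33.9 and 149.8 CPM against 128, 35.1 and 13.9 CPM. Both lists were thus lower with [H] in pair 3 only, judged by their medians.

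**Figure D4:**
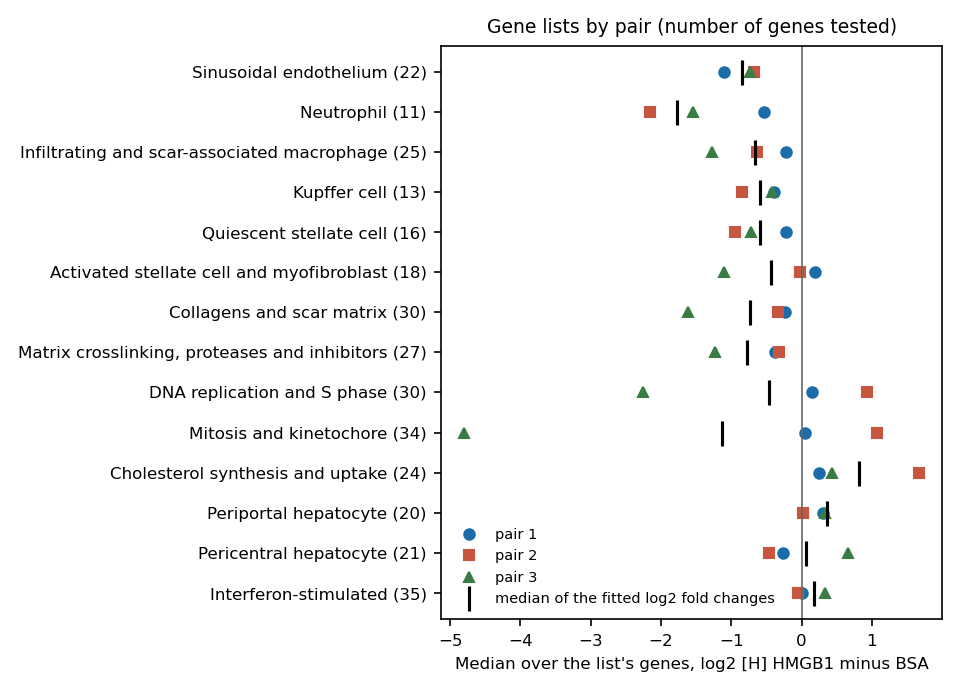
Median over the tested genes of each list (vertical, number of genes in brackets) of the log2 difference between [H] HMGB1 and BSA (horizontal), with 1 marker per pair and a bar for the median of the fitted fold changes. Sinusoidal endothelium has all 3 pairs between -1.10 and -0.67, while mitosis genes spread from -4.80 to 1.07.

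Cholesterol synthesis was the list with most members higher with [H]. Of 24 genes, 13 were higher and 0 lower in all 3 pairs (15.2% and 15.7% of all genes tested). An unadjusted p under 0.05 on the higher side was found for 9 (1.98% of all genes tested), and the median was 0.81. The pair medians were 0.25, 1.67 and 0.43, and the median without pair 2 was 0.37. Leaving out BSA library 2 alone, without the block, brought the median to 0.18, with 8 of the 24 below 0 and 0 instead of 9 at an unadjusted p under 0.05. The median was 0.40 without [H] library 1 and 0.39 without [H] library 3. Cyp51, the lanosterol demethylase, stood at 383, 65.3 and 185 CPM with BSA and at 613, 221 and 423 CPM with [H] (log2 fold change 1.20, SE 0.27). Msmo1, a sterol oxidase of the same stretch of the pathway, was at 181, 52.6 and 94.1 CPM against 268, 128 and 328 CPM. Hmgcs1, the synthase that feeds the pathway, was at 645, 33.7 and 312 CPM against 753, 308 and 693 CPM, so BSA library 2 was the lowest in each. The desaturase Sc5d, at 756, 256 and 774 CPM against 611, 341 and 720.3 CPM, had no common direction: it was higher with [H] in pair 2 and lower in pairs 1 and 3.

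Pericentral hepatocyte genes set [H] library 3 apart, and periportal genes had medians that were higher with [H] mainly in pairs 1 and 3. Glul, the glutamine synthetase confined to hepatocytes next to the central vein, stood at 80.8, 188 and 135 CPM with BSA and at 67.4, 68.6 and 1036 CPM with [H]. The glutamate transporter Slc1a2 of the same cells was at 1.53, 1.71 and 1.81 CPM against 0.343, 0.725 and 259.9 CPM. Cyp2e1 was at 369, 1267 and 879.9 CPM against 219.8, 401 and 3068 CPM. In [H] library 3 these genes were as high as in the livers regressing with BSA, which had 883 to 1033 CPM of Glul and 2189.7 to 3001 CPM of Cyp2e1. In pairs 1 and 2 all 3 genes were lower with [H], and the 21 pericentral genes had pair medians of -0.26, -0.46 and 0.67. Gstm1, a glutathione transferase, and Cyp2c29, the members of highest level, did not differ beyond their spread, at 2111, 1526 and 1739 CPM against 2129.6, 1927 and 1532 CPM and at 1580.3, 1422 and 1008 CPM against 709, 1013 and 1266 CPM. Periportal genes had a median of 0.36 and pair medians of 0.30, 0.02 and 0.33. Of the 20, 9 were higher and 0 lower in all 3 pairs (15.2% and 15.7% of all genes), and 19 were higher in pair 1. Without [H] library 3 and the block their median was 0.23. The periportal members of highest level, Alb and Cps1, were not higher, with log2 fold changes of -0.05 (SE 0.28) and -0.06 (SE 0.26).

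HMGB1 receptors and partners were lower at low levels, mostly in pairs 2 and 3. Of 19 tested genes, 12 were lower and 2 higher in all 3 pairs (15.7% and 15.2% of all genes tested). An unadjusted p under 0.05 on the lower side was found for 7 (5.58% of all genes). The median was -0.80 (pair medians -0.16, -1.13 and -0.70). Without the block, the median ran from -0.29 without BSA library 2 to -1.29 without BSA library 1, and it was -1.28 without [H] library 2. It was -0.45 without pair 2. The 7 genes of low p became 0 without [H] library 1 or [H] library 3, 1 without BSA library 2, and 2 without [H] library 2 or BSA library 3. Tlr4 stood at 3.12, 6.54 and 6.39 CPM with BSA and at 1.29, 2.57 and 2.99 CPM with [H] (log2 fold change -1.24, SE 0.39, edgeR adjusted p = 0.580), with pair differences of -1.18, -1.29 and -1.05. Tlr2 did not overlap either (8.18, 16.6 and 8.93 CPM against 4.72, 6.86 and 7.32 CPM, edgeR adjusted p = 0.669). The DNA sensor Tlr9 was at 1.26, 6.24 and 4.50 CPM against 0.944, 1.91 and 1.72 CPM, and the chemokine receptor Cxcr4 at 4.85, 17.7 and 14.3 CPM against 3.60, 8.18 and 6.43 CPM. Both differed least in pair 1. Trem1, an amplifier receptor of myeloid cells, rested on BSA library 2 (0.598, 9.46 and 1.02 CPM against 0.343, 0.791 and 0.445 CPM). The members of highest level, Cxcl12 (354, 215 and 385 CPM against 415, 229.6 and 544 CPM) and the proteoglycan Sdc1 (381, 349 and 473 CPM against 423, 475 and 374 CPM), were not lower as a pair of groups. Several of these receptors are myeloid genes, and the macrophage and neutrophil lists were lower in the same libraries. Their part in this list was not tested.

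Cytokine and chemokine genes differed most in pair 2. The 28 genes had a median of -0.63 (pair medians -0.36, -1.36 and -0.36), with 15 lower in all 3 pairs (15.7% of all genes tested). The median was -0.02 when BSA library 2 was left out without the block. It was -0.36 without pair 2, and -1.10, -1.11 and -1.10 without [H] library 2, BSA library 1 and BSA library 3. Cxcl2, a chemokine that attracts neutrophils, stood at 3.39, 337 and 12.6 CPM against 1.37, 12.3 and 1.97 CPM, lower in each pair. Interferon-stimulated genes had no common direction, with 6 of 35 lower and 10 higher in all 3 pairs (15.7% and 15.2% of all genes tested). Their pair medians were 0.0083, -0.051 and 0.33. The guanylate-binding proteins Gbp2 (27.5, 50.2 and 17.3 CPM against 12.7, 16 and 15.2 CPM) and Gbp5 (7.18, 10.4 and 4.43 CPM against 2.32, 2.90 and 3.63 CPM) lay below all BSA libraries. Usp18, a brake on interferon signalling, lay at or above them (15.4, 5.54 and 11.5 CPM against 15.4, 17.8 and 20.4 CPM).

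With the Y-linked term in the model, chosen after seeing the data, most list medians came closer to 0. Without the block the median was -0.94 for neutrophil genes, -0.41 for infiltrating macrophage genes, -0.28 for collagens and 0.09 for cholesterol synthesis. With both the block and the term, which leaves 1 residual degree of freedom, these medians were -1.27, -0.24, -0.09 and 0.64. Endothelium kept all its members on the lower side in both fits, as given above.

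The most similar comparison is with [O] HMGB1, the other form given with CCl4. In the 9 libraries of the 3 fibrosis groups, with the number as a block, 0 of 13429 genes (0%) differed between [H] and [O] at an adjusted p under 0.05, and the lowest adjusted p was 0.0575, for Adgre1. An unadjusted p under 0.05 was found for 1386 genes (10.3%) that were lower with [H] and 193 (1.44%) that were higher. When all 18 libraries of the table were fitted with the number within stage as a block, 178 of 13487 genes passed. Of these, 171 were lower and 7 higher with [H], and Adgre1 had an edgeR adjusted p of 0.00873. The 9 libraries without the block gave 0 genes and a lowest edgeR adjusted p of 0.437. Leaving out any 1 replicate number gave 0 genes too, with a lowest edgeR adjusted p of 0.247 to 0.470. With the Y-linked term added to the 9-library fit, 0 genes passed and 5.93% had an unadjusted p under 0.05. The [O] livers carried Xist at 1.57, 387 and 946 CPM, so Y-linked RNA separates [H] from [O] in pair 3 as well (184 against 0.519 CPM).

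Adgre1 stood at 19.3, 27.5 and 30.8 CPM with [H] and at 57.5, 109.9 and 108 CPM with [O], without overlap (log2 difference -1.82, SE 0.17). Genes lower with [H] were frequent in this comparison: of all 13429 genes 19.5% were lower with [H] in all 3 pairs, and for 9.32% every [H] library lay below every [O] library. Of the 30 collagen and matrix genes 28 were lower in all 3 pairs and 26 lay below every [O] library (median log2 difference -1.29, -1.12 in pair 1). Collagen Col1a1 stood at 46.7, 60.2 and 29.5 CPM with [H] and at 292, 294 and 273 CPM with [O]. Of the 22 endothelium genes 19 were lower in all 3 pairs and 12 did not overlap (median -0.88, -1.23 in pair 1). Infiltrating macrophage genes had a median of -0.95 (-0.93 in pair 1), and 15 of 25 did not overlap. For the neutrophil list the median was -2.47 but only -0.39 in pair 1, since the [O] libraries 2 and 3 were high. Kupffer cell genes had no common direction, with 4 of 13 lower in all 3 pairs, a median of -0.17 and pair medians of -0.45, 0.27 and -0.34. Genes that were higher with [H] than with BSA differed less from [O]. Scara5 stood at 98.3, 13.6 and 16.4 CPM with [H] and at 141, 24.8 and 9.98 CPM with [O] (log2 difference -0.30, SE 0.49, edgeR adjusted p = 0.915). The other genes of lowest p on the higher side differed from [O] by 0.17 (Ppm1k) to 0.79 (Arrdc3). Cholesterol synthesis genes had a median of 0.19 against [O]. The 2 comparisons of [H] with BSA and with [O] share the [H] libraries and are not independent.

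**Figure D5:**
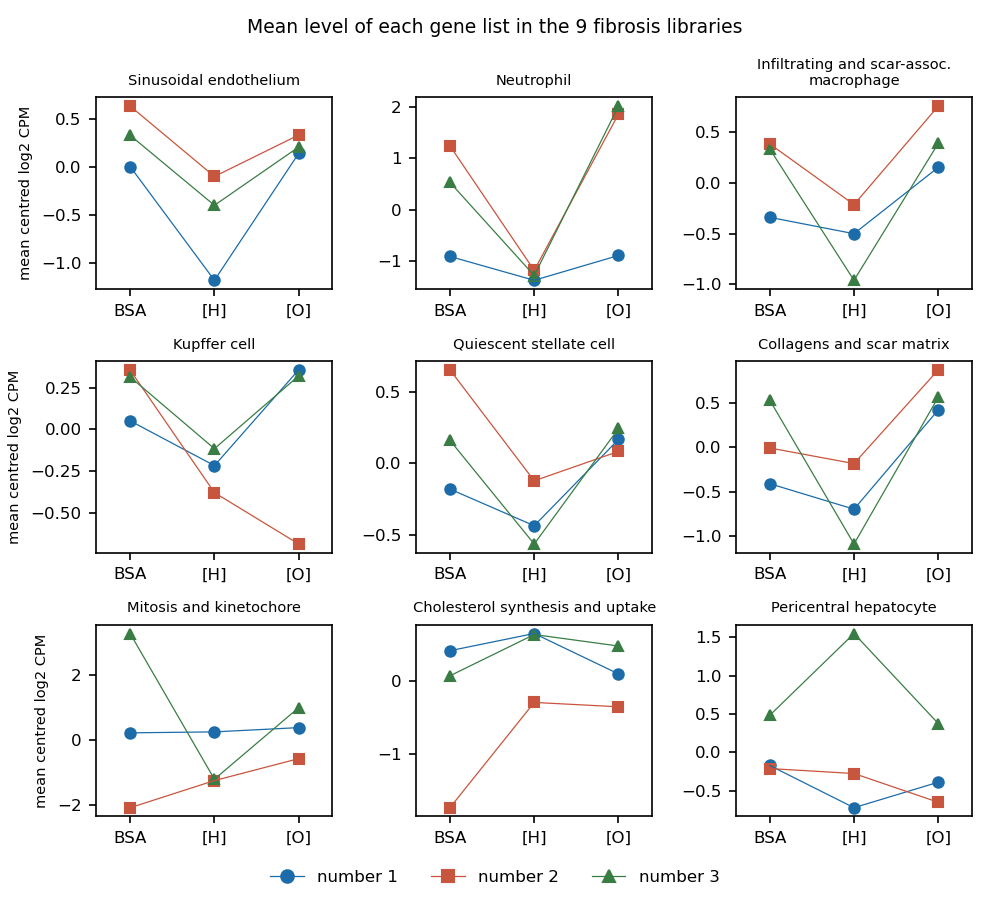
Mean over each list's tested genes of log2 CPM centred on the gene's mean over the 9 fibrosis libraries (vertical) with BSA, [H] and [O] HMGB1 (horizontal), 1 marker and line per replicate number. The [H] point is the lowest of its number for sinusoidal endothelium, neutrophil, infiltrating macrophage and collagen genes in all 3 numbers, and the mitosis and pericentral panels each show 1 library of number 3 apart.

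Wild-type livers of another table, given CCl4 or MO alone, show which of these genes CCl4 moves. They share no library with the [H] comparison, and their sex-linked RNA fits the male label. There 3212 of 13530 genes (23.7%) rose and 2632 (19.5%) fell with CCl4 at an edgeR adjusted p under 0.05. Of the genes that rose and were tested in both tables (3001), 31.5% were lower and 4.07% higher with [H] in all 3 pairs. Of those that fell (2431), 3.37% were lower and 30.4% higher. Over all 12494 genes tested in both tables the shares were 15.5% and 15.2%. The median log2 difference with [H] was -0.28 for the first set (pairs -0.17, -0.07 and -0.52) and 0.18 for the second (pairs 0.17, -0.01 and 0.37). Pair 2 thus contributed little to either. Across the 12494 genes the fold changes of both comparisons had a Pearson correlation of -0.43, a description across genes that are not independent.

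The lists were not alike in this respect, beside 23.7% of all genes tested that rose with CCl4 and 19.5% that fell. Collagen and matrix genes rose with CCl4 in 27 of 30 cases and fell in 1, and neutrophil genes rose in 9 of 11. Col3a1 rose with CCl4 by a log2 fold change of 3.35 and Gpnmb by 6.16. Of the 22 sinusoidal endothelium genes, in contrast, 1 rose and 3 fell with CCl4 (median 0.07), so the list that was most uniformly lower with [H] was one that CCl4 alone changed little. Kupffer cell genes fell with CCl4 in 11 of 13 cases and rose in 1, the same sign as most of them had with [H]. Among the genes of lowest p that were higher with [H], Dnajc12 rose with CCl4 by 1.14 on the log2 scale (edgeR adjusted p = 0.013). Arrdc3 differed by only -0.32 (edgeR adjusted p = 0.180). The others fell, among them Scara5, Ppm1k and Hsd3b5 by 1.85, 1.54 and 6.64. Cholesterol synthesis genes, many of them higher with [H], rose with CCl4 too in 14 of 24 cases and fell in 2 (median 0.81).

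In HSC-T6 cells, the same form of HMGB1 against BSA changed 81 of 10140 genes at an edgeR adjusted p under 0.05, 32 (0.316%) higher and 49 (0.483%) lower. With the replicate number as a block the count was 39. Across 8810 genes matched by symbol, the fold changes in the cells and in the liver had a Pearson correlation of -0.06. Scara5 rose in the cells by 0.18 on the log2 scale (edgeR adjusted p = 0.023), far less than its difference in liver, and Mki67 by 0.19 (adjusted p = 0.045).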

How the data were processed

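RNA from total liver and HSC-T6 cells was sequenced from TruSeq Stranded mRNA libraries, per the labels' protocols. The authors deposited raw read counts for each gene. The mouse build mm10 is named in the submitters' processing notes. Aligner, counter, annotation and counting strand: not given in the sources used here, so overlapping, antisense and near-identical genes are uncertain. The 6 libraries of the comparison held 10989755 to 16327132 counts over 24421 genes. No 2 libraries of a group agreed within sampling noise (chi-square per degree of freedom 48.7 to 158).

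The main test was edgeR 4.0.16 (R 4.3.3): robust quasi-likelihood fit, TMM factors, filterByExpr with a minimum count of 10 and total of 15, the replicate number as a block, 2 residual degrees of freedom, and Benjamini-Hochberg adjustment at 0.05. The numbers were taken as pairs because same-numbered libraries deviated together (each correlation over 0.1). DESeq2 1.42.0 and 18 further edgeR settings were alternatives, 2 of them with a Y-linked covariate added after seeing the data. Scripts were tested on simulated data. Levels are CPM with TMM factors over the 18 libraries of the table. Pair differences are log2 CPM with a prior count of 2. Fold changes are fitted log2 values with their standard error (SE). Positions are from a RefSeq table of GRCm38.p6, which held 95.6% of the tested symbols.

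The comparison, its 44 gene lists (811 tested genes) and the rule for named genes were chosen with earlier results of these data known. The rule named Hmgb1, the 10 genes of lowest p in each direction and the 2 members of highest mean in a list. Other members were named after their values were seen. Some genes the rule would name are not reported here. Lists are described by counts and medians beside all genes, without a set test. The promoter motif search, set for 5 or more called replication or mitosis genes, was not run: edgeR called 0 of them (1 with an unadjusted p under 0.05 on each side) and DESeq2 called 1, Ccne2.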

Additional observations from a re-analysis of the deposited data

Results flagged for a closer look

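In 590 of the 8810 genes tested in both (6.70%), the 3 same-numbered pairs of HSC-T6 cells differed one way with [H] HMGB1 and the 3 liver pairs the other way. In 429 (4.87%) all pairs of both went the same way. The difference was not tested. In the cells 9 of the 590 and 17 of the 429 passed the edgeR test, beside 81 of all 10140 genes tested there. In liver 0 passed. Of the genes named here 7 were among the 590. Id2, an inhibitor of helix-loop-helix transcription factors, fell in the cells by 0.53 on the log2 scale (log2 fold change -0.53, edgeR adjusted p = 0.044) and was higher in the liver pairs by 0.59, 1.41 and 0.68. The other 6 passed neither test. The log2 fold changes in the cells were 0.20 for Akap12, 0.086 for Dab2 and 0.073 for Tlr4, which were lower in liver, and -0.29 for Dnajc12, -0.074 for Msmo1 and -0.72 for Usp18, which were higher in liver.

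In 5 named genes, 1 of the 4 wild-type livers given CCl4 stood away from the other 3. The gap to its neighbour was 0.931 of the whole range for Stab2, 0.912 for Apoe, 0.846 for Ecm1, 0.912 for Cyp2e1 and 0.870 for Tlr9. These gaps exceed the 95% limit of Dixon's test for 4 values, and chance flags about 1 in 20 such groups. Many more genes than these are named here, so the 5 cannot be told apart from chance flags.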

How the results depend on the processing

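The main limits are the 2 residual degrees of freedom and a coefficient of variation between libraries of 32.1%. Further limits are the libraries whose sex-linked, cell cycle, pericentral, immediate early or heat shock genes stand apart. Leaving out a pair or a library gave 0 to 2 genes past the test and 0 to 1 list members, with both genes (Scara5 and Cyp2c55) past it without pair 2. DESeq2 with the pairs gave 38 genes and 14 list members. Without the replicate block, the same 6 libraries gave 0 genes, 451 with an unadjusted p under 0.05 and a lowest adjusted p of 0.979. The block in the other fits changed no call of the 6 libraries. For [H] against [O], the block by number within stage over all 18 libraries gave 178 genes, and for HSC-T6 cells the replicate block gave 39 instead of 81. DESeq2 and edgeR without pair 2 aside, the 19 alternatives gave 0 genes.

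Single genes that changed sign are given as log2 fold changes. When a pair or a library was left out, the range was -1.03 to 0.47 for Acta2, -0.15 to 0.32 for Apoe, -0.13 to 1.95 for C6, -2.35 to 0.45 for Col1a1, -1.97 to 0.21 for Col3a1, -1.41 to 1.12 for Cyp2e1 and -0.79 to 6.61 for Cyp4a12a. It was -0.28 to 0.23 for Fn1, -0.97 to 2.10 for Glul, -0.090 to 0.19 for Gstm1, -1.06 to 0.12 for Marco, -2.01 to 0.081 for Mcm6, -0.60 to 0.31 for Mmp14, -0.59 to 0.37 for Nid1 and -0.47 to 0.16 for Sc5d. It was -0.10 to 0.31 for Sdc1, -1.60 to 6.33 for Slc1a2, -0.25 to 0.68 for Spp1, -3.36 to 0.38 for Top2a, -0.20 to 0.41 for Tpm1, -2.03 to 0.063 for Trem2 and -0.077 to 2.47 for Upp2. Apoe was -0.018 with no block in 6 libraries and -0.017 in 18, and with the block -0.018 in 9 libraries and -0.0069 by stage. Cyp2e1 was 0.55 in both fits without the block, and Mmp14 was 0.0065 in that of 18 libraries. Slc1a2 was -0.046 with DESeq2, and Sc5d was 0.016 without the filter and 0.0018 with upper quartile factors.

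With the Y-linked term and no block, the values were -0.55 for C6, 0.10 for Fn1, 0.16 for Nid1, 0.39 for Mmp14, -0.067 for Gstm1, 0.93 for Cyp2e1, -0.0064 for Cxcl12, -0.26 for Cyp2d9, 2.81 for Xist, 1.69 for Cyp2a4 and -0.012 for Cyp4a12a. With the term and the block they were 0.22 for Trem2, 0.29 for Marco, 0.77 for Col1a1, 0.28 for Col3a1, 0.014 for Fn1, 0.20 for Nid1, 0.23 for Mmp14, 0.89 for Acta2, 0.11 for Pcna, 0.57 for Mcm6, 0.39 for Mki67, 0.63 for Top2a, -1.09 for Glul and -3.80 for Slc1a2. The cause of these changes was not tested.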

Other observations

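Plasma proteins of the hepatocyte were higher with [H] in pair 1, whose sex-linked genes were closest to the label. Of 27 acute phase genes 25 were higher in pair 1, with a median log2 difference of 0.73, and of 29 complement and coagulation genes 26 were, with a median of 0.40. Over all genes tested 51.5% were higher in that pair. In pair 2 both medians were below 0 (-0.18 and -0.26), and in pair 3 they were 0.31 and 0.41. Only 6 genes of each list were higher in all 3 pairs, beside 15.2% of all genes tested. None of them passed the test.

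Antigen presentation by MHC class II was lower in most pairs, with 7 of 11 genes lower in all 3 (15.7% of all genes tested) and pair medians of -0.32, -0.86 and -0.62. Its fitted median of -0.61 was -0.31 without [H] library 1, -0.36 without BSA library 3 and -0.36 without pair 2. Genes of vessels other than the sinusoids had pair medians of -0.71, -0.35 and -0.62, and 5 of 12 were lower in all 3 pairs, beside the same 15.7% of all genes. Their fitted median of -0.62 was -0.23 without BSA library 2, and -0.35 both without [H] library 3 and without pair 3. T and NK cell genes were summed at 17.5, 107 and 22.4 CPM with BSA and at 15, 15.4 and 16.5 CPM with [H], so that 1 BSA library stood above the rest. Mesothelial genes, which come from the capsule of the liver, had no common direction, with pair medians of -1.16, 0.45 and -1.23 and summed levels of 39.6 to 156 CPM with BSA and 29.8 to 69.2 CPM with [H].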
